A study of Rattus norvegicus with 12 samples.

Results

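Angiogenic and heparin-binding growth factors were followed in rat ventricle after a coronary occlusion and reperfusion. The set held Vegfa, Vegfb, Vegfc, Ptn, Mdk, Pdgfa, Fgf1 and Hbegf, and its members were the probe sets whose only gene symbol in the platform annotation is one of these names. All 8 genes were on the array, with 2 probe sets for Vegfa and 1 for each of the others, or 9 of 15923 probe sets. All 9 lay among the 10527 probe sets bright enough to be tested, although Hbegf passed that filter on few arrays: it was above the 40th percentile of the array on 4 of 12, Ptn and Fgf1 on 11, and the rest on 12. Rats called IR, for ischaemia and reperfusion, had the left anterior descending artery (LAD) of the heart closed for 30 min, and ventricle was collected once blood had flowed again for 2 or 7 days. Sham rats of both days had an open artery throughout. The 4 groups, 2 d IR, 2 d sham, 7 d IR and 7 d sham, held 3 rats each with 1 array per rat, and rats are named by their replicate number. The sources used here do not give strain, age, sex or the piece of ventricle sampled, so that infarcted, border and remote muscle cannot be told apart.

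Growth factors of this set are secreted or shed by one cell and read by receptors on another. The vascular endothelial growth factors act on receptor tyrosine kinases of the endothelium: Vegfa signals mainly through Kdr and is induced by low oxygen, Vegfb binds Flt1 and the co-receptor neuropilin 1 and is made in quantity by heart muscle, and Vegfc drives lymphatic growth through Flt4. Pleiotrophin (Ptn) and midkine (Mdk) form a small family of heparin-binding cytokines, and Pdgfa, Fgf1 and Hbegf activate the platelet-derived, fibroblast and epidermal growth factor receptors. Many of these ligands bind heparan sulfate, the sugar chains of syndecans and other proteoglycans, which hold them near the cell surface.

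The tissue was checked against marker genes. All 11 cardiomyocyte markers were tested and bright on all 12 arrays, among them Myh6, the alpha myosin heavy chain, at 22727.6 to 56220.4. Arrays within a group did not lie equally close. The first principal component of all tested probe sets put 2 d IR replicate 69 at 18.29, while the other 2 d IR arrays had -4.11 and 0.18. It put 7 d sham replicate 82 at -23.61, while the other 7 d sham arrays had -1.06 and -1.14. For the members, calls that change without either array are given with and without it. Most called pathway genes are given with the fits that kept or lost the call. Marker counts were not recomputed without these arrays. The log2 ratio of the 3′ to the 5′ probe set of Actb, a measure of RNA integrity, was 0.11 to 0.23 in 7 d IR hearts and 0.38 to 0.82 in 7 d sham hearts. At 2 d it was 0.16 to 0.30 in IR and 0.13 to 0.31 in sham hearts. The same ratio overlapped between the 7 d groups for Gapdh, at 0.27 to 0.38 in IR and 0.31 to 0.44 in sham hearts, and for hexokinase, at 0.54 to 0.69 in IR and 0.53 to 0.80 in sham hearts. The part of the Actb difference in the results at 7 d was not tested. The 7 d IR rats were numbered 44, 47 and 48, and the rats of the other 3 groups 69 to 82. What these numbers mark is not given in the sources used here, so that in every comparison with 7 d IR hearts a difference between number series and that of injury or time cannot be told apart.

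Vegfb was lower, and Ptn higher, in the reperfused hearts, and these genes with Vegfa carry the contrast described here. Their promoters are shown as a description of the contrasted genes. Each entry runs from 250 bases before to 50 bases after the RefSeq start site in GRCr8. Capitals mark the GC box GGGCGG, which reads CCGCCC where it lies on the other strand. In Vegfb capitals also mark a core of the hypoxia response element, written GCGTG. The entries are Vegfb at chr1:213607103-213607402 on the minus strand, Vegfa at chr9:22452604-22452903 on the plus strand and Ptn at chr4:66342283-66342582 on the minus strand.
Vegfb: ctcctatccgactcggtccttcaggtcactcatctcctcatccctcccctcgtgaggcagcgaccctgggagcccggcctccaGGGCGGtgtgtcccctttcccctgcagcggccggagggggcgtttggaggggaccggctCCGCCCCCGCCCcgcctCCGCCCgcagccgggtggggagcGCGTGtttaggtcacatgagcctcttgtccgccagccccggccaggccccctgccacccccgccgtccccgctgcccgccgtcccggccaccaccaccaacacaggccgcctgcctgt
Vegfa: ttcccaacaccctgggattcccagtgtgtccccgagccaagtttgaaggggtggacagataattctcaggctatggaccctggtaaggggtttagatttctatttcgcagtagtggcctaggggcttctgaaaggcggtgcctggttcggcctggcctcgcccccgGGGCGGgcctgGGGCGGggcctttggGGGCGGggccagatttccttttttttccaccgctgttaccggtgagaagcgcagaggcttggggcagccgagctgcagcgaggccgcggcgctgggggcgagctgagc
Ptn: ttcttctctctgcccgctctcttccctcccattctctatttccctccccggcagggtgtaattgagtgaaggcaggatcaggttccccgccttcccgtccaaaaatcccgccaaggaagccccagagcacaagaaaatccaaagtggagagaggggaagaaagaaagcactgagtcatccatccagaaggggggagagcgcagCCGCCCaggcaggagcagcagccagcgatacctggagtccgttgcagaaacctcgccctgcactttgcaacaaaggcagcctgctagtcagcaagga
Both strands were searched for the GC box, for the TATA box TATAAA and for both hypoxia response cores, GCGTG and its A form ACGTG. No matches in these 3 entries overlapped. The Vegfb entry held 4 GC boxes and 1 hypoxia response core at 73.7% GC, the Vegfa entry 3 GC boxes at 63.3% GC, and the Ptn entry 1 GC box at 57% GC. A GC box was present in 33.1% and either hypoxia core in 41.6% of the 33465 promoter entries of the same length. A second Vegfa entry, at chr9:22460028-22460327, held none of the motifs searched. The other members with an entry had positive changes at both days that did not pass. Among them, Vegfc held 2 GC boxes at 73% GC, Pdgfa 1 at 60% and Fgf1 1 at 48.3%. Hbegf held 1 hypoxia response core and no GC box at 68.7% GC. These matches describe letters in a window of 300 bases, and their part in the changes was not tested. RefSeq entries were matched for 7 of the 8 genes, with none for Mdk.

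The first question was how the vascular endothelial growth factors differed between IR and sham hearts. The transcript of Vegfb, the ligand of Flt1, fell at 7 d, to 0.56 times the sham level. At 2 d its IR hearts also lay below the sham hearts without passing the test. Vegfa, the ligand of Kdr, was lower at both days by a smaller amount that passed only when both days were averaged, and only on the brighter of its probe sets. Vegfc, the lymphatic factor, was slightly higher in IR hearts at both days and did not pass.

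At 7 d, Vegfb had signals of 4141.7, 4883.0 and 5754.8 in IR hearts (replicates 44, 47 and 48), against 9372.5, 7904.5 and 9209.8 in sham hearts (replicates 80, 81 and 82). Every IR heart lay well below every sham heart. The log2 change was -0.83 (SE 0.17, 95% interval -1.18 to -0.47) and the limma adjusted p was 0.00998. Of all tested probe sets, 5.85% were called lower and 6.22% higher at 7 d, 12.1% in all. The IR arrays lay wholly below the sham arrays for 15.8% of probe sets and above them for 16.6%. The Vegfb call was lost without 7 d sham replicate 82, one of the arrays that stood apart, at a log2 change of -0.79 (limma adjusted p = 0.0510). It was made in the other 11 fits that left out an array, and also without replicates 69 and 82 together (-0.79, limma adjusted p = 0.0226).

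At 2 d, Vegfb had signals of 4254.8, 5018.1 and 7170.3 in IR hearts (replicates 69, 73 and 76), against 8130.5, 7358.5 and 7814.5 in sham hearts (replicates 71, 72 and 74). The groups did not overlap, but replicate 76 lay close under the lowest sham heart. The log2 change was -0.52 (SE 0.17) and did not pass (limma adjusted p = 0.0954). Without replicate 76 it was -0.72 and passed (limma adjusted p = 0.0375). Without replicates 69 and 82 it was -0.36 (limma adjusted p = 0.356). At 2 d, 2.47% of tested probe sets were called, 0.589% lower and 1.88% higher, and the IR arrays lay wholly below the sham arrays for 12.5%. The change averaged over both days was -0.67 (SE 0.12, limma adjusted p = 0.00243), where 22.9% of probe sets were called and 10.5% were lower, and it passed in all fits that left out an array. The effect at 7 d minus that at 2 d was -0.31 and did not pass (limma adjusted p = 0.833). For that difference 0.0095% of probe sets, or 1, were called.

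Vegfa on its brighter probe set had signals of 3461.0, 3946.2 and 4807.7 in 2 d IR hearts, against 4917.2, 6253.8 and 5020.4 in 2 d sham hearts. At 7 d the signals were 3359.7, 4317.8 and 4712.6 in IR hearts, against 5067.6, 5181.3 and 6082.8 in sham hearts. At each day the IR hearts lay below all sham hearts, by a narrow gap at 2 d. The log2 change was -0.39 at 2 d (SE 0.15, limma adjusted p = 0.158) and -0.39 at 7 d (limma adjusted p = 0.113). Averaged over the days it was -0.39 (SE 0.11, limma adjusted p = 0.0191), the only Vegfa value that passed.

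That average did not pass without 2 d IR replicate 69 (-0.34, limma adjusted p = 0.0535), without 2 d sham replicate 72 (-0.34, limma adjusted p = 0.0525), without 7 d IR replicate 44 (-0.33, limma adjusted p = 0.0505), or without replicates 69 and 82 together (-0.30, limma adjusted p = 0.110). The dimmer Vegfa probe set had signals of 1099.6 to 1506.9 in 2 d IR hearts, against 1459.7 to 1557.0 in 2 d sham hearts. At 7 d it had 1068.5 to 1542.0 in IR hearts, against 1322.3 to 1689.6 in sham hearts. Its groups overlapped at both days. Its log2 changes were -0.25 at 2 d and -0.16 at 7 d, and their average of -0.21 did not pass (limma adjusted p = 0.200), so that the call for Vegfa rests on 1 of 2 probe sets.

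Vegfc had signals of 1036.7, 864.9 and 1007.8 in 2 d IR hearts, against 816.9, 750.4 and 820.5 in 2 d sham hearts. At 7 d the signals were 1131.3, 860.3 and 1050.1 in IR hearts, against 826.8, 897.8 and 753.5 in sham hearts. The groups were apart at 2 d, the IR hearts lying wholly above as for 13.9% of tested probe sets, with replicate 73 close above the highest sham heart, and overlapped at 7 d. The log2 changes were 0.23 at 2 d and 0.24 at 7 d, and their average of 0.24 (SE 0.09) did not pass (limma adjusted p = 0.0894). Unlike Vegfb and Vegfa, this member of the family had positive values at both days.

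**Figure D1:**
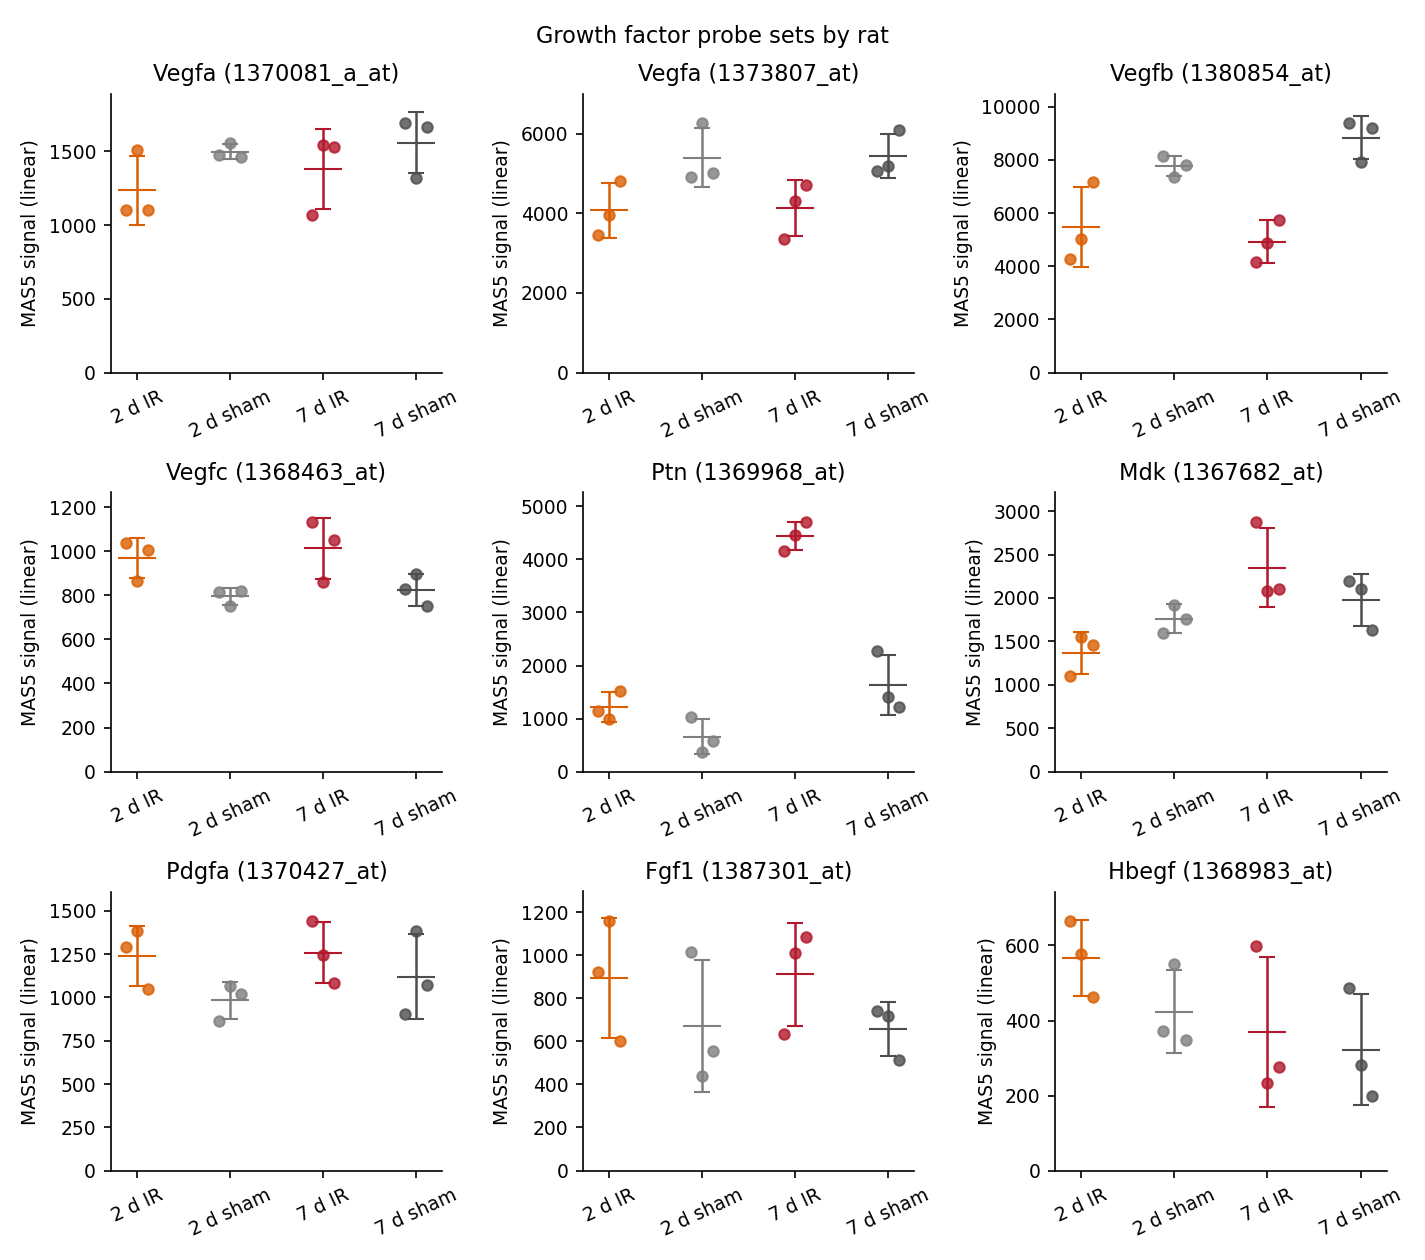
Signal of each of the 9 probe sets in every rat, with IR left of sham at 2 d and 7 d. Each point is 1 array and each bar a group mean. Ptn stands at 4163.9 to 4698.5 in 7 d IR hearts, above the other 9 hearts, and Vegfb lies below the sham hearts at both days.

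The second question was how pleiotrophin and midkine, the heparin-binding cytokine pair, behaved. Ptn, a secreted cytokine that binds syndecans and chondroitin sulfate proteoglycans, rose 2.61-fold in IR hearts at 7 d. It was also higher in 7 d than in 2 d IR hearts by 3.31-fold. Mdk, its only close relative, rose with time in IR hearts and did not pass between IR and sham hearts at either day.

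At 7 d, Ptn had signals of 4163.9, 4457.2 and 4698.5 in IR hearts, against 2280.3, 1410.4 and 1208.6 in sham hearts. The IR hearts were close together and lay far above all sham hearts, of which replicate 80 was the highest. The log2 change was 1.38 (SE 0.25, 95% interval 0.85 to 1.92, limma adjusted p = 0.00773), and it passed in all 12 fits that left out an array, at 1.22 to 1.62 with a highest adjusted p of 0.0399. At 2 d the signals were 1143.3, 989.4 and 1528.2 in IR hearts, against 1032.0, 376.5 and 568.8 in sham hearts. Here the groups overlapped, since sham replicate 71 lay above IR replicate 73. The log2 change of 0.78 (SE 0.25) did not pass (limma adjusted p = 0.0954). The average of both days was 1.08 (SE 0.18, limma adjusted p = 0.00191), and 12.4% of probe sets were called higher on it. The difference between the days' effects, 0.60, did not pass (limma adjusted p = 0.768).

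Ptn was also compared between days, and its group means ran 7 d IR, 7 d sham, 2 d IR and 2 d sham from high to low. At 7 d the means were 4440 ± 268 for IR hearts and 1633 ± 570 for sham hearts, and at 2 d they were 1220 ± 278 for IR hearts and 659 ± 337 for sham hearts (SD, n = 3 each). The 7 d sham and 2 d IR hearts overlapped, as did the 2 d IR and 2 d sham hearts. Between 7 d IR and 2 d IR hearts Ptn rose by 1.73 on the log2 scale (SE 0.25, limma adjusted p = 0.00179), where 3.45% of probe sets were called and 2.45% were higher. Between 7 d sham and 2 d sham hearts the change was 1.13 (SE 0.25), with all 7 d sham hearts above all 2 d sham hearts. It did not pass (limma adjusted p = 0.137), ranking 31 among the 10527 probe sets by p, of which 8, or 0.076%, were called. The 7 d arrays lay wholly above the 2 d arrays for 7.27% of probe sets in this comparison. Without 7 d sham replicate 82 the change between sham days was 1.30 and passed (limma adjusted p = 0.0432). Surgery without occlusion and the passing of days cannot be told apart in it.

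Mdk, the midkine gene, had signals of 2871.0, 2077.5 and 2101.7 in 7 d IR hearts, against 1096.0, 1555.1 and 1456.0 in 2 d IR hearts. All 7 d IR hearts lay above all 2 d IR hearts, which held for 10.6% of tested probe sets. The log2 change was 0.70 (SE 0.16, limma adjusted p = 0.0267). It did not pass without 2 d IR replicate 69 (0.57, limma adjusted p = 0.0776), without 2 d IR replicate 76 (0.75, limma adjusted p = 0.0597), without 7 d IR replicate 44 (0.56, limma adjusted p = 0.113), or without replicates 69 and 82 together (0.57, limma adjusted p = 0.0506). Among the marker lists, Mdk correlated most with those of mesothelium and epicardium (r = 0.72) and lung (0.70) over the 12 arrays. Replicate 44, the 7 d IR heart with the highest Mdk, had a summed lung marker signal of 5715.6, against 955.7 to 2116 on the other 11 arrays. The mesothelial and epicardial sum was 1993.1 to 4593.9 in 7 d IR hearts, against 1171.7 to 1594.5 in 2 d IR hearts, and neither of its 2 tested markers passed with limma between IR days (median 0.88). The part of these cells in the Mdk result was not tested.

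The sham hearts had Mdk signals of 2192.4, 2109.1 and 1634.4 at 7 d, against 1591.4, 1923.5 and 1762.0 at 2 d, and these overlapped. The change between sham days was 0.15 (limma adjusted p = 0.805). At 2 d all IR hearts lay below all sham hearts, with a log2 change of -0.33 (SE 0.16, limma adjusted p = 0.256). At 7 d the groups overlapped and the change was 0.22 (limma adjusted p = 0.399). The difference between these effects was 0.55 and did not pass over all probe sets (unadjusted p = 0.0288 by limma, adjusted p = 0.615). The time comparisons share arrays with the IR comparisons, so that these values are not independent of each other.

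Pdgfa, Fgf1 and Hbegf, ligands of 3 other receptor families, did not pass in any of the 6 comparisons. Pdgfa, which activates Pdgfra on fibroblasts and other mesenchymal cells, had 1046.2 to 1381.8 in 2 d IR hearts, against 865.2 to 1064.8 in 2 d sham hearts. Its 7 d signals were 1086.2 to 1439.2 in IR hearts, against 903.3 to 1386.0 in sham hearts. Its groups overlapped at both days, and the log2 changes were 0.28 at 2 d (limma adjusted p = 0.326) and 0.15 at 7 d (limma adjusted p = 0.577).

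Fgf1, the acidic fibroblast growth factor, had 602.0 to 1156.7 in 2 d IR hearts, against 437.2 to 1016.0 in 2 d sham hearts. At 7 d it had 635.9 to 1084.6 in IR hearts, against 515.0 to 741.1 in sham hearts. These overlapped as well, with log2 changes of 0.35 at 2 d (SE 0.25) and 0.36 at 7 d. Hbegf, a ligand of the epidermal growth factor receptor that is shed from the membrane, was near the dim end of the tested range at 197.6 to 664.2 over all 12 hearts. Its log2 change was 0.31 at 2 d (SE 0.27, limma adjusted p = 0.562) and 0.11 at 7 d (limma adjusted p = 0.833), values that the log2(signal + 195) scale used throughout understates for so dim a gene.

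Between days, the 7 probe sets other than those of Ptn and Mdk did not pass in either kind of heart. Their log2 changes, 7 d over 2 d, in IR hearts ran from -0.48 for Hbegf to 0.14 for the dimmer Vegfa probe set, and in sham hearts from -0.28 for Hbegf to 0.18 for Vegfb. Vegfb had a change of -0.13 between IR days, and both Vegfa probe sets were within 0.14 of 0 in each comparison.

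**Figure D2:**
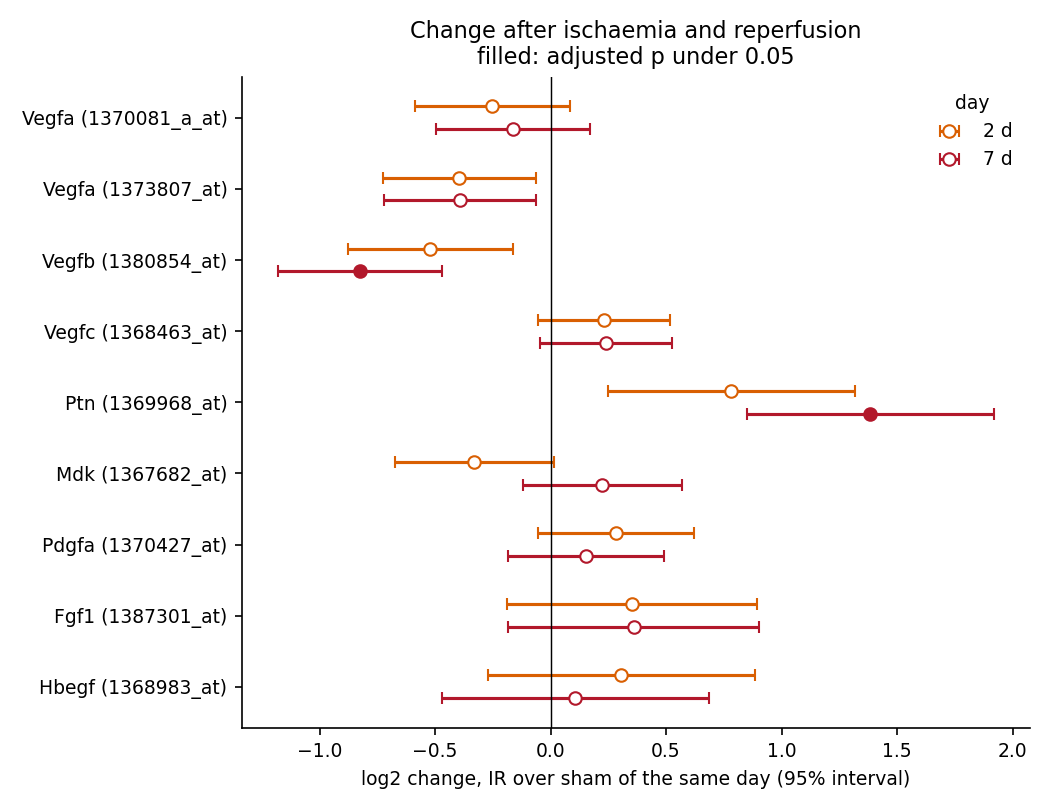
Log2 change of each probe set between the IR and sham hearts of each day, with 95% intervals from the limma fit. Filled points passed an adjusted p of 0.05. Vegfb at -0.83 and Ptn at 1.38 passed at 7 d, and at 2 d none of the 9 did.

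In all, 0 of 9 probe sets passed at 2 d, where limma called 2.47% of all tested and 2259 had an unadjusted p under 0.05, and 2 of 9 passed at 7 d, 1 in each direction, against 12.1% of all tested. The average over days gave 3 of 9 against 22.9%, namely Vegfb and Vegfa lower and Ptn higher. With 1 probe set per gene, the median log2 change of the 8 genes was 0.26 at 2 d and 0.19 at 7 d, against 0.00 and 0.01 for all tested probe sets. As a group the members thus held positive and negative changes, and the ligands of 1 family did not share a sign.

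The contrast of Vegfb with Vegfa and with Ptn was also taken within each array, as the difference of their values of log2(signal + 195). Scaling of an array cancels from it only in part, because of the added 195, and least for dim signals such as Ptn in 2 d sham hearts. Such a difference shows whether genes changed unequally and says nothing of which transcript is more abundant. At 2 d, Vegfb minus Ptn was 1.99 ± 0.22 in IR hearts and 3.29 ± 0.49 in sham hearts, and at 7 d it was 0.13 ± 0.14 in IR hearts and 2.34 ± 0.40 in sham hearts (SD, n = 3 each). At both days all IR hearts lay below all sham hearts. The difference was -1.30 at 2 d and -2.21 at 7 d, each with an exact permutation p of 0.1, the smallest that 3 against 3 rats can give. Permuted within days it was -1.76 with an exact two-sided permutation p of 0.005, the smallest possible, and 0.03 adjusted over the 6 tests of this kind. It was -1.94 with a pseudocount of 1 and -1.56 with 500 (exact permutation p = 0.005 for each). Vegfb minus Vegfa was 0.39 ± 0.15 in 2 d IR hearts and 0.52 ± 0.25 in 2 d sham hearts, which overlapped.

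At 7 d, Vegfb minus Vegfa was 0.24 ± 0.06 in IR hearts and 0.68 ± 0.16 in sham hearts (SD, n = 3 each), which did not overlap. The difference was -0.13 at 2 d (exact permutation p = 0.5) and -0.43 at 7 d (exact permutation p = 0.1, the smallest possible). Within days it was -0.28 with an exact permutation p of 0.045, and 0.12 after adjustment over the 6 tests. The dimmer Vegfa probe set gave a larger difference, -0.27 at 2 d (exact permutation p = 0.4), -0.66 at 7 d (exact permutation p = 0.1) and -0.46 within days (exact permutation p = 0.02, and 0.06 after adjustment over the 6 tests). The unequal change of Vegfb and Vegfa thus depended in size on the Vegfa probe set and passed after adjustment with neither. That of Vegfb and Ptn passed. It restates, on the same arrays, the opposite limma calls of both genes, chosen with earlier results known, and adds no independent support.

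**Figure D3:**
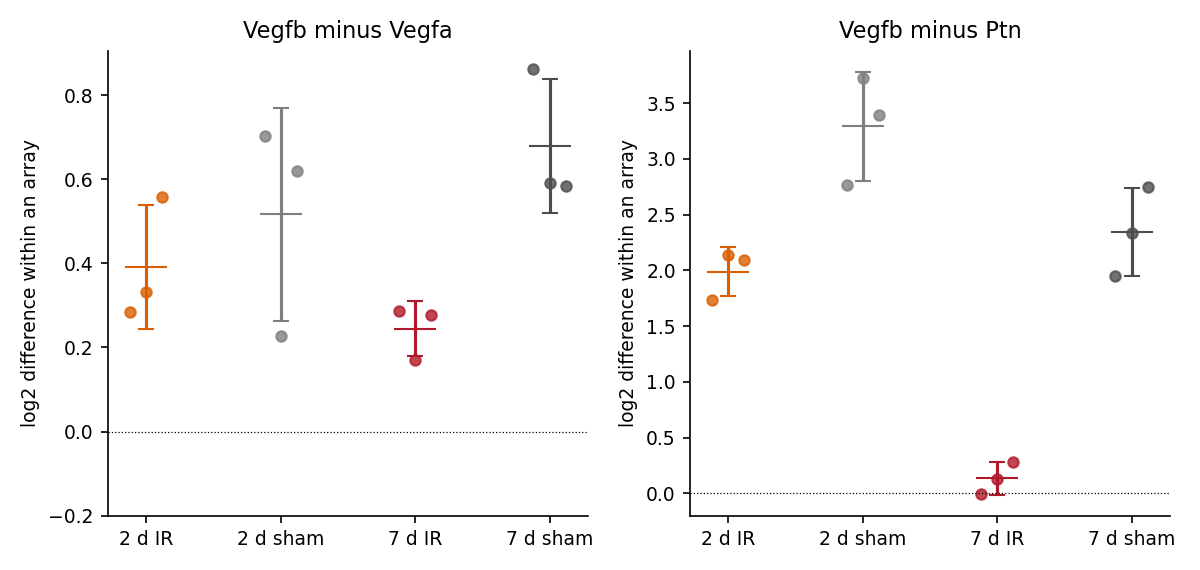
Within-array difference of log2(signal + 195) of Vegfb minus Ptn and Vegfb minus Vegfa, 1 point per rat with group means, IR left of sham at each day. Vegfb minus Ptn averages 0.13 in 7 d IR hearts and 2.34 in 7 d sham hearts, and Vegfb minus Vegfa separates IR from sham at 7 d only.

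Markers of cell types moved with these results. Of all tested probe sets, limma called 1.88% higher and 0.589% lower at 2 d, and 6.22% higher and 5.85% lower at 7 d. Between sham days it called 0.076%. The marker counts that follow stand beside these shares. Cardiomyocyte markers, of cells known to make Vegfb, were lower in IR hearts: of 11, 0 rose and 1 fell at 2 d, and 0 rose and 7 fell at 7 d (median log2 change -0.42). Their summed signal was 395755 to 434126 in 7 d IR hearts, against 519046.5 to 613012.2 in 7 d sham hearts. At 2 d it was 410423.4 to 546118.1 in IR hearts, against 555770.6 to 628654.7 in sham hearts. Thus the IR hearts lay below the sham hearts on both days for this list, as they did for Vegfb. In whole tissue, fewer cells of a type and less RNA per cell cannot be told apart.

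Fibroblast markers went the other way. Of 10, 1 rose at 2 d and 6 rose at 7 d, with 0 lower at either day, and the median log2 change at 7 d was 0.88. Their summed signal was 217280.6 to 288013.8 in 7 d IR hearts, against 95884.3 to 177144.3 in 7 d sham hearts. At 2 d it was 97163.7 to 117968.3 in IR hearts, against 76794.6 to 88256.8 in sham hearts. The 7 d hearts of each kind thus lay above the 2 d hearts of that kind, as for Ptn between sham days, and in 7 d sham replicate 82 both Ptn and this sum lay only a little above the highest 2 d sham heart. Of 10 macrophage and monocyte markers, 6 rose at each day. The summed macrophage signal was 86144 to 96729 in 7 d IR hearts, against 33535.4 to 60159.8 in 7 d sham hearts. At 2 d it was 83773.4 to 128311.3 in IR hearts, highest in replicate 69, against 35630.1 to 53865 in sham hearts.

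Of 10 endothelial markers, 0 rose at 2 d and 2 rose at 7 d, with 0 lower. Their summed signal was 35863.2 to 36637.4 in 7 d IR hearts, against 30254.7 to 33663.6 in 7 d sham hearts, and at 2 d 29802.7 to 31230.1 in IR hearts, against 27883.4 to 30994.5 in sham hearts. Of 10 smooth muscle and pericyte markers, 0 rose at 2 d and 3 rose at 7 d, with 0 lower and a median of 0.49 at 7 d. Their summed signal was 51720.2 to 55852.5 in 7 d IR hearts, against 41552.3 to 51868.9 in 7 d sham hearts, which overlapped.

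Other lists were shorter. Of 2 neutrophil markers tested, 0 rose at 2 d and 1 rose at 7 d, and 1 rose between sham days. The summed signal of all 3 neutrophil markers on the array, tested or not, was 11831.4 to 24244.4 in 7 d IR hearts. It was 4792.1 to 15068.1 in 7 d sham hearts. At 2 d it was 3841.5 to 6755.9 in IR hearts, against 1560.6 to 3092.7 in sham hearts. Of 4 atrial markers, 0 passed at 2 d and 1 fell at 7 d, with medians of -0.57 and -0.67. The atrial sum was 24972.1 to 49277.1 in 7 d IR hearts, against 41693.7 to 54884.1 in 7 d sham hearts, and at 2 d 14182.5 to 20459.6 in IR hearts, against 20690.2 to 41563.5 in sham hearts. Between sham days 0 of the 4 passed and all had positive changes (median 1.24).

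Over the 12 arrays, Vegfb correlated with the mean log2 signal of the cardiomyocyte list at r = 0.79 and with that of the macrophage and monocyte list at -0.81, and the brighter Vegfa probe set did so at 0.79 and -0.82. Ptn correlated with several lists: fibroblast at 0.90, endothelium at 0.85, cardiomyocyte at -0.81, neutrophil at 0.80 and adipocyte at 0.80. These points share the 4 groups and the arrays. The part of cell composition in the results for Vegfb, Vegfa and Ptn was not tested.

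**Figure D4:**
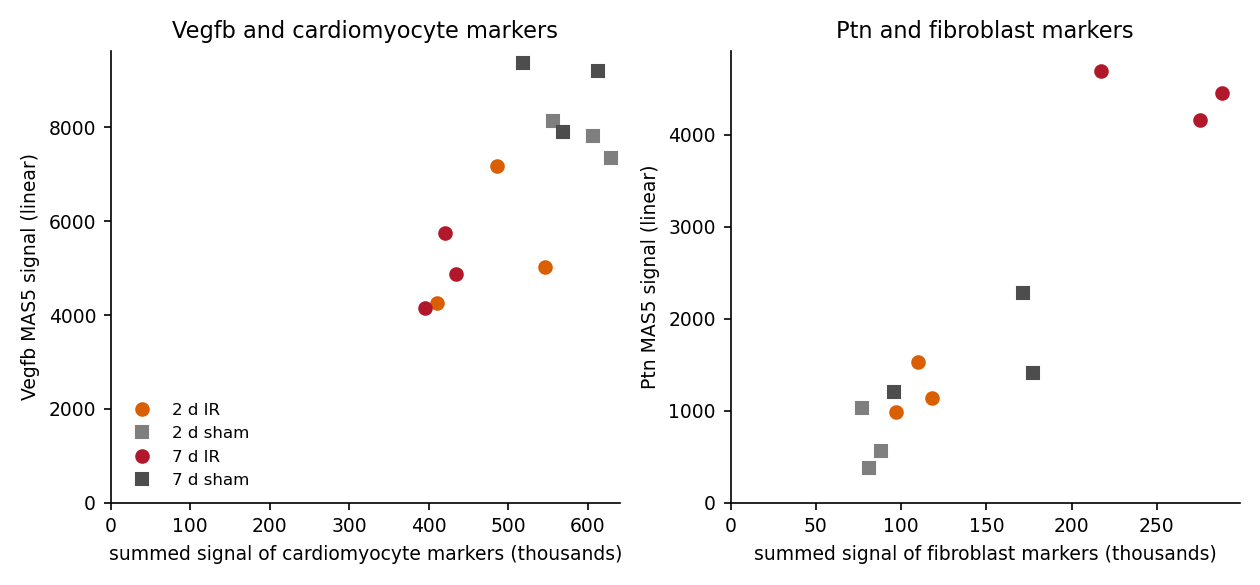
Signal of Vegfb against the summed signal of the cardiomyocyte markers, and of Ptn against that of the fibroblast markers, 1 point per array. The cardiomyocyte sum lies below the sham hearts of the same day in all IR hearts, and the fibroblast sum is highest in 7 d IR hearts, at 217280.6 to 288013.8.

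The receptors and partners of these ligands were counted from pathway lists, named by the largest changes that passed. Of all tested probe sets, limma called 1.88% higher and 0.589% lower at 2 d, and 6.22% higher and 5.85% lower at 7 d. For the average of days it called 12.4% higher and 10.5% lower. The counts of each list stand beside these shares. Receptors and other ligands of the vascular endothelial and angiopoietin family showed no member that passed. Of 7 tested out of 11 listed, limma called 0 at 2 d and 0 at 7 d, with medians of 0.08 and 0.28. Kdr, the main receptor of Vegfa, averaged 4929 ± 460 in 7 d IR hearts and 4627 ± 436 in 7 d sham hearts (SD, n = 3 each), a log2 change of 0.09. Flt1, the receptor of Vegfb, averaged 892 ± 152 in 7 d IR hearts and 801 ± 145 in 7 d sham hearts, a log2 change of 0.13. Nrp1, the co-receptor neuropilin 1, had a log2 change of 0.35 (SE 0.18, limma adjusted p = 0.228). The IR and sham hearts of the 7 d groups overlapped for all 3. Kdr and Flt1 are also 2 of the endothelial markers.

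Receptors and binding partners of pleiotrophin and midkine included syndecans that rose. Of 6 tested out of 12 listed, 2 rose at 2 d and 0 fell, and at 7 d 2 rose and 1 fell. For the average of days 3 rose and 0 fell. Sdc1, which encodes the cell-surface proteoglycan syndecan 1, averaged 1525 ± 318 in 2 d IR hearts and 488.1 ± 65.3 in 2 d sham hearts (SD, n = 3 each), a log2 change of 1.32 (SE 0.19, limma adjusted p = 0.0128). At 7 d Sdc1 averaged 1816 ± 306 in IR hearts and 770.3 ± 258.0 in sham hearts, a log2 change of 1.08 (limma adjusted p = 0.00763). The IR hearts lay above all sham hearts at each day. Its 7 d call held in all 12 fits that left out an array, and its 2 d call was lost without replicate 69 (limma adjusted p = 0.0551), 71 (0.0660) or 72 (0.0517).

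Sdc2, syndecan 2, averaged 2385 ± 299 in 7 d IR hearts and 1413 ± 197 in 7 d sham hearts, a log2 change of 0.68 (limma adjusted p = 0.0117) that held in all 12 such fits and on another probe set (0.65, limma adjusted p = 0.0148). Ncl, nucleolin, which binds midkine, rose at 2 d by 0.54 (limma adjusted p = 0.0433), with calls in 4 of the 12 fits that left out an array. Sdc3, syndecan 3, a pleiotrophin receptor of nerve cells, fell at 7 d on its brighter probe set (-0.67, limma adjusted p = 0.0366), with calls in 7 of 12 such fits and none without replicate 44, 47, 80, 81 or 82. Another Sdc3 probe set gave 0.21 (limma adjusted p = 0.527), so that its direction differed between probe sets.

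Some enzymes and core proteins of heparan sulfate were higher in IR hearts at 7 d. Of 13 tested out of 18 listed, 4 rose at 7 d and 0 fell, where 6.22% of all tested probe sets were called higher. The other 9 did not pass, and the median log2 change of the 13 was 0.34. At 2 d none passed with limma, and for the average of days 5 rose and 1 fell. Ext1, the polymerase subunit that extends the heparan sulfate chain, averaged 3072 ± 140 in 7 d IR hearts and 1707 ± 156 in 7 d sham hearts (SD, n = 3 each), a log2 change of 0.78 (SE 0.14, limma adjusted p = 0.00726). Sulf2, an extracellular enzyme that removes sulfate groups from the chain, averaged 4571 ± 596 in 7 d IR hearts and 2657 ± 174 in 7 d sham hearts, a log2 change of 0.73 (limma adjusted p = 0.00763). Both passed in all 12 fits that left out an array, and in both the IR hearts lay above all sham hearts.

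Col18a1, the core protein from which endostatin is cut, rose by 0.72 (limma adjusted p = 0.0470) with overlapping groups, in 4 of 12 such fits, and its other probe set gave 0.75 without passing (limma adjusted p = 0.0761). The fourth gene was Ext2, the partner of Ext1 (0.47, limma adjusted p = 0.0451), which is named beyond the naming rule.

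Few genes of the other families passed at 2 d or 7 d. Of 3 genes of the platelet-derived growth factor family tested out of 6, 0 passed at 2 d and 1 rose at 7 d, the receptor-like gene Pdgfrl (0.79, limma adjusted p = 0.0161). That call was lost without 7 d IR replicate 48 (limma adjusted p = 0.0519) or 7 d sham replicate 82 (0.0827). Of 7 fibroblast growth factor genes tested out of 16, 0 passed at 2 d, and at 7 d the receptor gene Fgfr1 rose (0.45, limma adjusted p = 0.0444, calls in 3 of 12 fits that left out an array). Another probe set of Fgfr1 gave 0.23 without passing. Fgf13, an intracellular factor that binds sodium channels, fell at 7 d (-0.70, limma adjusted p = 0.0243). Its call was lost without 7 d IR replicate 44 or 47 or 7 d sham replicate 82. Of 5 epidermal growth factor family genes tested out of 14, limma called 0 at either day. For the average of days 2 of these 5 rose and 0 fell. On that average 2 of the 3 platelet-derived growth factor genes rose and 0 fell. Of the 7 fibroblast growth factor genes, 1 rose and 2 fell on it.

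Other secreted factors that act on vessels included inhibitors among those that rose. Of 13 tested out of 18 listed, 1 rose at 2 d and 3 at 7 d, and 0 fell. Over all tested probe sets, 1.88% were called higher at 2 d and 6.22% at 7 d. For the average of days 5 of the 13 rose and 0 fell. Sparc, a matrix protein that binds growth factors, averaged 33538 ± 4952 in 7 d IR hearts and 16033 ± 3501 in 7 d sham hearts (SD, n = 3 each), a log2 change of 1.07 (limma adjusted p = 0.00323), and its other probe set also passed (1.15). Serpinf1, pigment epithelium-derived factor, an inhibitor of vessel growth, averaged 11238 ± 1888 in 7 d IR hearts and 5330 ± 1250 in 7 d sham hearts, a log2 change of 1.06 (limma adjusted p = 0.00370). Both held in all 12 fits that left out an array. Thbs4, thrombospondin 4, rose by 1.24 (limma adjusted p = 0.0130) and lost its call without 7 d sham replicate 82 (limma adjusted p = 0.0658). Angptl4, the gene that rose at 2 d (1.81, limma adjusted p = 0.0285), passed in 8 of 12 such fits and not without replicate 69, 71, 72 or 76.

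Hypoxia response genes, the class to which Vegfa belongs, had 1 call in each direction at 7 d and none at 2 d. Of 17 tested out of 19, limma called 0 at 2 d, and at 7 d 1 rose and 1 fell, with a median of -0.17. Over all tested probe sets, 6.22% were called higher and 5.85% lower at 7 d. For the average of days 3 rose and 5 fell, where 12.4% of all tested were called higher and 10.5% lower. Bnip3, a mitochondrial protein of the cell death and mitophagy pathway, averaged 9265 ± 1507 in 7 d IR hearts and 13642 ± 385 in 7 d sham hearts (SD, n = 3 each), a log2 change of -0.56 (limma adjusted p = 0.0173). Its call was lost without 7 d IR replicate 44 or 47 or 7 d sham replicate 82. Ndrg1, a stress-responsive gene, averaged 2680 ± 168 in 7 d IR hearts and 1691 ± 305 in 7 d sham hearts, a log2 change of 0.62 (limma adjusted p = 0.0408). It passed in 4 of 12 fits that left out an array.

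**Figure D5:**
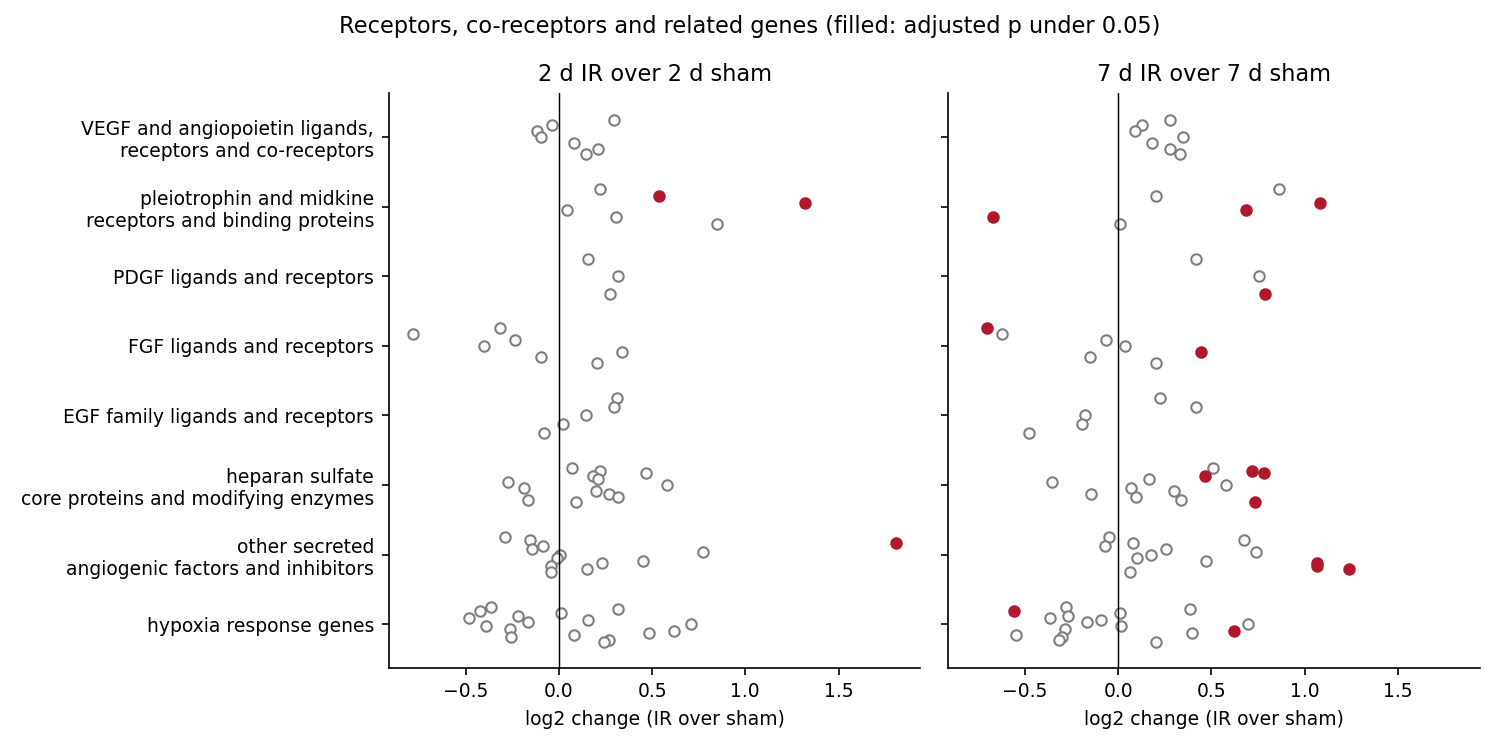
Log2 change, IR against sham, of every tested gene of the pathway lists at 2 d and 7 d, 1 point per gene on a common axis; filled points passed an adjusted p of 0.05. At 7 d the genes that passed include Sdc1 at 1.08, Sparc at 1.07 and Ext1 at 0.78 to the right of 0, and Fgf13 at -0.70 to the left.

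Genes whose signal followed each of the 3 contrasted genes most closely over the 12 arrays were listed among 7719 genes by Pearson's r, as a description over arrays that share the 4 groups. Vegfb was most like Ptpn3, a protein tyrosine phosphatase (r = 0.961), followed by Rab4a, Ppp2r3a, Inppl1 and Mlip at 0.931 to 0.920. Vegfa was most like Prdx2, a peroxidase of the cytosol (0.967), followed by Hspb8, a small heat shock protein, Klhl31, Iqsec1 and Timm10 at 0.952 to 0.935. Ptn was most like Mfap5, a microfibril protein of the matrix (0.962), followed by Plat, the tissue plasminogen activator, Lum, Pxdn and Timp2 at 0.959 to 0.950.

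With group means removed, r was 0.834 for Ptpn3 with Vegfb, 0.944 for Prdx2 with Vegfa and 0.732 for Mfap5 with Ptn. Lum, the proteoglycan lumican, is also one of the 10 fibroblast markers above. Among the members themselves, Vegfa and Vegfb had r = 0.87 over the 12 arrays and 0.70 with group means removed. Vegfb and Ptn had -0.42 over the 12 arrays and 0.46 with group means removed, so that the sign for that pair differed.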

How the data were processed

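Total RNA from 12 rat ventricles was measured on 1 array each. The deposited intensity per probe set is linear and was computed by the authors with MAS5, per the submitters' processing notes, with no version given in the sources used here. This method joins the probes of a set into 1 value. Array means, with 2% trimmed at each end, were all 1500.4 to 1500.5, which shows that the deposited intensity had been scaled to a common mean; such scaling leaves the distributions unequal. The sources used here name no batch or pairing, and p-values measure the spread between these rats.

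All tests used log2(signal + 195), a scale that understates changes of dim genes; 195 is the arrays' median 20th percentile. Control probe sets (57) were left out, and 10527 probe sets above the 40th percentile on at least 3 arrays were tested. The 12 arrays entered 1 group-means model in limma 3.58.1, run in R 4.3.3 (eBayes with an intensity trend; two-sided; Benjamini-Hochberg adjustment over all tested probe sets; 0.05 as threshold), and tested on simulated data. Log2 changes are given with limma's SE. Exact two-sided permutation tests served the within-array differences, which can go no lower than 0.1 with 3 against 3 and 0.005 within days. Figures used matplotlib 3.10.9.

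All members are named. From each pathway list, up to 3 called genes with the largest change are named per IR comparison, with some uncalled receptors of the members added after their values were seen. For genes with several probe sets, the one with the highest mean signal stands for the gene. Members and lists were chosen with earlier results of these data known. Gene symbols come from GEO's platform annotation (12789 probe sets with 1 symbol, 312 with several, 2822 unnamed here), and promoters from RefSeq, GRCr8. The alternatives were pseudocounts of 1, 50 and 500, no filter, median centring, quantile normalization, no trend, array weights, the sham arrays of the other day, the other probe sets, and each array left out, as well as 2 d IR replicate 69 and 7 d sham replicate 82 together. The number of arrays limits the precision.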

Additional observations from a re-analysis of the deposited data

How the results depend on the processing

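No paired analysis was possible because the groups share no replicate numbers. Over 22 settings, 71 of 1152 member values changed sign, 0 of them for a value that had passed and 0 that passed in the alternative. The Ptn change at 2 d was -0.34 against the 7 d sham arrays. The Hbegf change at 7 d was -0.17 against the 2 d sham arrays, -0.072 without replicates 69 and 82, and -0.17 to 0.33 with 1 array left out. The Vegfb change between IR days ran from -0.29 to 0.077 with 1 array left out. The 260 probe sets called at 2 d were 77 without the filter, 68 without the trend, 70 without replicates 69 and 82, and 2 to 515 with 1 array left out. The 1271 at 7 d were 541 without those replicates and 175 to 1463 with 1 array left out. The 2414 for the average of days were 1039 and 1572 to 2439. The 363 between IR days were 577 with array weights, 556 without those replicates and 192 to 439 with 1 array left out. The 8 between sham days were 1 without the filter, 2 without the trend, 25 with weights, 83 without those replicates and 1 to 76. The 1 for the difference of effects was 0 without the filter, 0 without the trend, 3 with weights, 0 without those replicates and 0 to 6 with 1 array left out. Vegfb minus Vegfa within days, -0.28, was -0.28 with a pseudocount of 1 (exact permutation p = 0.05), -0.25 after quantile normalization (exact permutation p = 0.055), -0.28 without those replicates (exact permutation p = 0.1), -0.46 with the other Vegfa probe set (exact permutation p = 0.02) and -0.35 to -0.23 with 1 array left out. Vegfb minus Ptn within days was -1.89 to -1.65 with 1 array left out. Leaving out arrays leaves fewer samples; the cause of the other changes was not tested.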
